A study of Mus musculus with 16 samples.

Results

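A set of 8 genes for secreted chemokines and inflammatory cytokines were followed across 16 ChIP-seq island lists from differentiating 3T3-L1 cells. They were taken as a named list of 8 genes (Ccl2, Ccl7, Cxcl1, Cxcl5, Cxcl12, Il6, Csf1 and Lif) out of 22367 protein-coding genes of the mm9 annotation, by a rule that uses no measured value. Earlier results of these data were known, however, when the genes were chosen. Each gene was described over a window of its body plus 30 kb on each side, and all islands of the 16 lists (479799 in all) that overlapped the window by at least 1 bp were collected. All 8 genes were found in the annotation, and all 8 windows held H3K27ac in every H3K27ac library.

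The 3T3-L1 line consists of mouse preadipocytes, fibroblast-like cells that turn into adipocytes when induced. The cells were profiled before induction (0 h) or after 6 h or 48 h in medium with insulin (1 μg/ml), dexamethasone (0.25 μM) and isobutylmethylxanthine (0.5 mM), the mixture called MDI. H3K27ac, a mark of active promoters and enhancers, was measured at 0 h and 48 h in cells stably transduced with an empty retrovirus or with a retrovirus that expresses V5-tagged SETD5 from a weak viral LTR promoter, with 2 replicate libraries (A and B) for each of these 4 groups. SETD5-V5 itself was measured with a V5 antibody at 0 h and 6 h (2 libraries each), H3K4me1, found at enhancers whether primed or active, at 0 h and 48 h (1 library each), and endogenous SETD5 with an antibody to the protein at 0 h and 6 h (1 library each). The virus field of the labels is empty for replicate A of the SETD5-V5 libraries and for endogenous SETD5. For H3K4me1 it names the SETD5 virus, whereas the study presents those cells as untransduced, so the state of the cells behind the H3K4me1 lists is uncertain.

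Chemokines are small secreted proteins that direct leukocyte migration through receptors on the target cell, with the CC ligands acting mainly on monocytes and the CXC ligands with an ELR motif mainly on neutrophils. Many of these genes are controlled by NF-κB in stromal cells, and preadipocytes are a known source of CCL2, IL-6 and CSF1 in adipose tissue. Glucocorticoids such as dexamethasone are known to lower the expression of many of them.

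An island is a stretch that the authors' caller found enriched over its threshold, so a stretch without an island was below that threshold and not necessarily unmarked. The value used throughout is the covered length, the kb of the window that lie in islands of a library. The rank of an island is the percentage of islands in the same list that have a higher score, so a low rank number is a strong island. With 2 libraries against 2, the two-sided exact permutation test cannot give a p below 0.333. A gene was therefore called only where both libraries of one group lay above both of the other, and counts of calls are read against the share of all protein-coding genes with any coverage that were called in the same way. Values come from bulk cultures, in which fewer marked cells and less mark per cell cannot be told apart.

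The H3K27ac lists held 31292 to 39949 islands (103.4 to 121.5 Mb), the H3K4me1 lists 49926 and 50276, the SETD5-V5 lists 6666 to 35573 and the endogenous SETD5 lists 2132 and 3293. Replicate B of SETD5-V5 at 0 h, with 6666 islands, stood apart from replicate A of the same time, with 16054. The lists hold no read counts. The study's records give more total reads for each H3K27ac library of SETD5 cells than for the empty-vector library of the same time and letter, and more for each SETD5-V5 library at 6 h than at 0 h. Promoters of 8 of 8 fibroblast marker genes carried H3K27ac in all 8 libraries, against 1 or 2 of 6 macrophage markers and 0 or 1 of 4 endothelial markers. The macrophage genes Ptprc, Emr1, Itgam and Cd68 and the endothelial genes Pecam1, Cdh5 and Kdr carried none in any of the 8 libraries.

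The promoters of 3 genes with an NF-κB sequence are shown with the 250 bp before the annotated start (mm9, plus strand), since this is the DNA under the promoter islands described in the next paragraphs. The Ccl2 stretch lies at chr11:81848823-81849072, the Cxcl1 stretch at chr5:91320017-91320266 and the Il6 stretch at chr5:30339451-30339700. Capitals mark exact matches on either strand to GGNNTTTCC (NF-κB) and TTGCNNAA (C/EBP).
Ccl2 promoter: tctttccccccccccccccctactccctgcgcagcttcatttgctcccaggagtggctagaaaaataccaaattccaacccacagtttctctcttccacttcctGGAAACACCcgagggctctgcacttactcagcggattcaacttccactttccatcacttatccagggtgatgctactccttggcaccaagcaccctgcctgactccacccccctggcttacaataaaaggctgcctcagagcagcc
Cxcl1 promoter: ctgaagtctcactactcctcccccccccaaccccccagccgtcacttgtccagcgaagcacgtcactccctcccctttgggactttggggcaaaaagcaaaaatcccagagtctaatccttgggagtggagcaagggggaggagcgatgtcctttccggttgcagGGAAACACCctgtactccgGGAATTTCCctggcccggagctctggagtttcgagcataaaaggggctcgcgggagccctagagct
Il6 promoter: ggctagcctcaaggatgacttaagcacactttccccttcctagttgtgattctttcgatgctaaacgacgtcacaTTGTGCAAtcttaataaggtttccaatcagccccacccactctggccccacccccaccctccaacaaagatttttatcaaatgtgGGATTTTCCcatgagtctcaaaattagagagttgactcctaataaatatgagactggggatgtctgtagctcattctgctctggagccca

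In the 300 bp from 250 bp before to 50 bp after the start, GGNNTTTCC matched 5 of the 8 genes (Ccl2, Cxcl1, Cxcl5, Il6 and Csf1), against 5.66% of all 22367 protein-coding promoters. TTGCNNAA matched 2 (Cxcl5 and Il6; 10.3% of all promoters), TGANTCA, the AP-1 sequence, matched 2 (Ccl7 and Lif; 6.93%), and the TATA box TATAAA matched 1 (Ccl7; 13.4%). Cxcl1 held 2 NF-κB matches, which begin 85 and 66 bp before its start. Cxcl12 held none of the 4 sequences in this window. A match is a description of the letters and not evidence that a factor was bound.

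Among the 8 promoters, 7 (counted from 1000 bp upstream to 100 bp downstream of any annotated start) carried an H3K27ac island in all 8 libraries, against 42.6% of all protein-coding genes. All 8 carried it in at least 1 library, whereas 46.3% of all genes carried none. The exception was Lif. Its annotated first start had no H3K27ac island in any of the 8 libraries, and islands counted as promoter islands, 1.6 kb long, lay 8.0 to 9.6 kb inside the gene at a later start in 1 of 2 libraries at 48 h with each vector, at ranks of 84.6% (empty vector, A) and 70.8% (SETD5, B). H3K4me1 was present at all 8 promoters at 0 h and at all but Il6 at 48 h. At Csf1 the island counted at 48 h lay 8.4 to 12.6 kb inside the gene, at a later start, and the first start had none.

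Ccl2 (CCL2, or MCP-1, the principal monocyte chemoattractant) and Ccl7 (CCL7, or MCP-3, which acts on monocytes through overlapping receptors) lie 10.1 kb apart on chromosome 11. Their windows (chr11:81819073-81880955 and chr11:81829214-81891027) share 51.7 kb, so their values are not independent, and both also hold Gm17268 and Ccl11. Over 48 h of differentiation both lost H3K27ac. In empty-vector cells the covered length at Ccl2 was 43.7 and 37.7 kb at 0 h (replicates A and B) and 24.8 and 29.3 kb at 48 h. In SETD5 cells it was 31.4 and 30.2 kb at 0 h and 14.6 and 21.8 kb at 48 h. The groups did not overlap within either vector, and the mean change was -13.64 kb with empty vector and -12.56 kb with SETD5.

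At Ccl7 the covered length in empty-vector cells was 39.2 and 32.6 kb at 0 h and 18.0 and 20.0 kb at 48 h. In SETD5 cells it was 30.2 and 29.2 kb at 0 h and 9.8 and 15.8 kb at 48 h. The 48 h libraries were lower in both vectors without overlap, and the mean change was -16.93 kb in each. Both libraries of SETD5 cells also lay below both empty-vector libraries at each time. The mean difference between SETD5 and empty vector at Ccl2 was -9.95 kb at 0 h and -8.86 kb at 48 h, and at Ccl7 it was -6.19 kb at both times. With flanks of 10 kb the 0 h differences became -1.7 kb at Ccl2, where the groups then overlapped, and 0.29 kb at Ccl7.

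The number of islands did not follow the covered length at these genes. At 0 h the Ccl2 window held 5 and 8 islands with empty vector and 10 and 11 with SETD5, and the longest island was 13.8 kb in both empty-vector libraries against 5.4 and 5.6 kb in the SETD5 libraries. The long empty-vector island lay upstream of Ccl2. In this upstream region 3 stretches were covered in both empty-vector libraries and in neither SETD5 library at 0 h. They began 27.1, 20.5 and 14.7 kb before the Ccl2 start and were 1.6, 2.4 and 3.2 kb long, and all 3 were fully inside H3K4me1 islands at 0 h. SETD5-V5 at 0 h covered none of them in either replicate. One stretch of 1.6 kb, 18.1 to 19.7 kb after the Ccl2 start, had the opposite pattern, with coverage in both SETD5 libraries at 0 h and in none of the other 14 libraries.

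Promoter islands of both genes remained at 48 h. They were weaker than at 0 h without overlap at Ccl7 with both vectors and at Ccl2 with empty vector, and at Ccl2 with SETD5 the times overlapped. The rank of the Ccl2 promoter island in empty-vector cells was 9.79% and 10.3% at 0 h and 34.0% and 31.0% at 48 h. In SETD5 cells it was 17.8% and 49.7% at 0 h and 36.1% and 32.3% at 48 h. In replicate B at 0 h, the stretch that replicate A held in a single island was split. The piece over the promoter ranked at 49.7%, and the piece just upstream, 2.2 kb long, ranked at 28.8%. The overlap of the times at Ccl2 with SETD5 therefore depends on this split. Ccl7 moved from 9.0% and 8.68% to 48.2% and 42.1% with empty vector, and from 12.2% and 13.8% to 53.1% and 40.9% with SETD5. Thus the strongest promoter islands of Ccl2 and Ccl7 were those of the empty-vector cells at 0 h.

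The lost stretches included 1 between Ccl2 and Ccl7 (chr11:81854801-81856200, intergenic, 1.4 kb) and 1 that holds exonic bases of Ccl11 (chr11:81871401-81873000, 1.6 kb). The longest of them, 3.4 kb from 25.2 to 28.6 kb after the Ccl7 start (chr11:81884401-81887800, intergenic), was fully covered in both empty-vector libraries at 0 h and for 94.1% and 100% of its length in the SETD5 libraries at 0 h. None of the 4 libraries at 48 h covered it. H3K4me1 covered all of it at 0 h and 58.8% at 48 h.

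**Figure D1:**
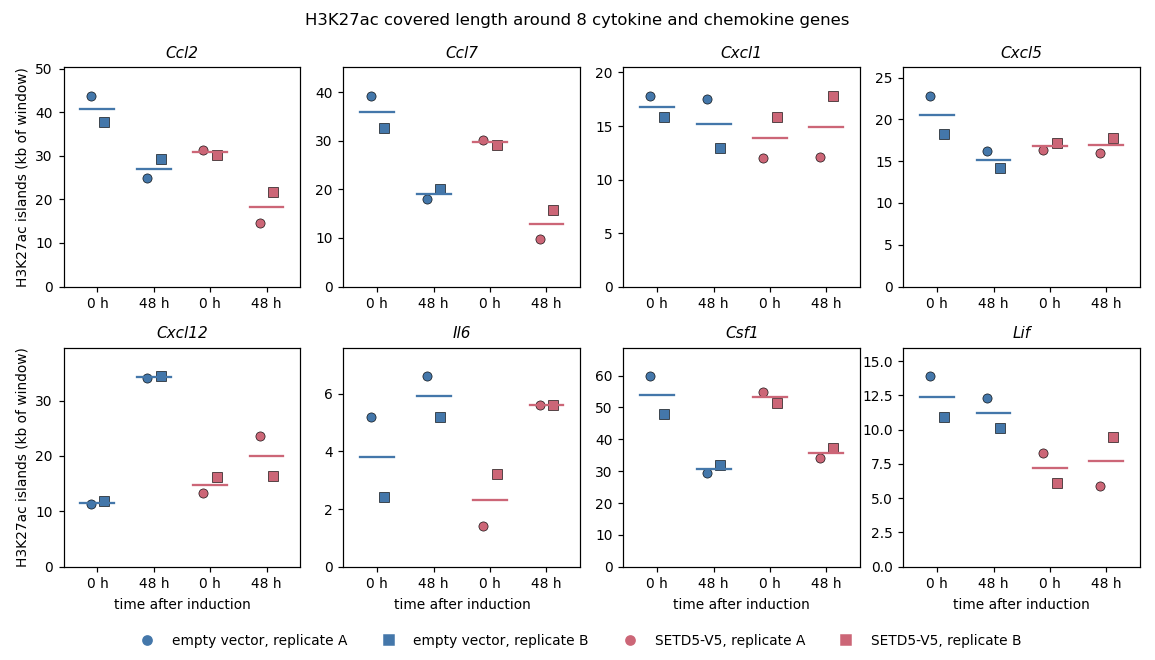
H3K27ac covered length (y axis, kb of the window) of the 8 genes in each library, by time after induction (x axis) and vector; points are libraries (circle A, square B) and lines are means of 2. Ccl2, Ccl7 and Csf1 fall in both vectors, and Cxcl12 rises from 11.4 and 11.8 kb to 34.0 and 34.4 kb with empty vector.

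Cxcl1 (CXCL1, or KC) and Cxcl5 (CXCL5, or LIX) are neutrophil attractants that act through CXCR2, and their starts lie 131.9 kb apart on chromosome 5. The Cxcl1 window (chr5:91290267-91352141) also holds Cxcl2, and the Cxcl5 window (chr5:91158325-91220651) also holds Ppbp, Pf4 and Cxcl3. The H3K27ac covered length at Cxcl1 was 17.8 and 15.8 kb at 0 h and 17.5 and 12.9 kb at 48 h with empty vector. With SETD5 it was 12.0 and 15.8 kb at 0 h and 12.1 and 17.8 kb at 48 h. The groups overlapped in all 4 comparisons of time and of vector, and the replicates of SETD5 cells at 48 h lay further apart than any of the 4 mean differences, the largest of which was -2.9 kb.

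At Cxcl5 the covered length was 22.8 and 18.2 kb at 0 h and 16.2 and 14.2 kb at 48 h with empty vector, a fall without overlap of 5.3 kb in the mean. With SETD5 it was 16.4 and 17.2 kb at 0 h and 16 and 17.8 kb at 48 h, and the times overlapped. At 0 h both SETD5 libraries lay below both empty-vector libraries (mean difference -3.7 kb), and at 48 h the vectors overlapped. With flanks of 50 kb neither the change over time with empty vector (-4.5 kb) nor the 0 h difference between vectors (-4.0 kb) was free of overlap. A stretch of 2.6 kb, 19.7 to 22.3 kb after the Cxcl5 start (chr5:91208001-91210600, intergenic), was lost by 48 h in both empty-vector libraries and covered for 61.5% and 76.9% of its length in the SETD5 libraries at 48 h. A longer stretch lost with empty vector, from 8.1 to 11.3 kb after the start, holds exonic bases of Ppbp. The SETD5 libraries covered 37.5% and 75.0% of it at 0 h and none of it at 48 h. The Cxcl5 promoter island, among the strongest of its lists, moved from ranks of 1.49% and 1.25% to 9.04% and 6.77% with empty vector and from 2.25% and 2.28% to 4.93% and 4.75% with SETD5.

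Cxcl12 (CXCL12, or SDF-1, the ligand of CXCR4, which retains haematopoietic cells in their niches) went the other way. Its window (chr6:117088553-117161385) holds no other coding gene. With empty vector the covered length was 11.4 and 11.8 kb at 0 h and 34.0 and 34.4 kb at 48 h, a 2.95-fold increase far larger than the spread between replicates. With SETD5 it was 13.4 and 16.2 kb at 0 h and 23.6 and 16.4 kb at 48 h, where the lower 48 h library exceeded the higher 0 h library by 1 bin of 200 bp. This last call ended with flanks of 10 kb (2.9 kb) and of 50 kb (3.65 kb), and the difference turned to -3.2 kb when only islands above the median score of each list were kept. At 48 h the SETD5 libraries lay below the empty-vector libraries by 14.2 kb in the mean.

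The Cxcl12 gain included 4 stretches of at least 1000 bp that were covered in both empty-vector libraries at 48 h and in neither at 0 h. They ran from 6.2 to 8.6, 12.2 to 17.6, 23.8 to 27.8 and 32.4 to 37.4 kb after the start, so that the first lay in the gene body and the last 3 at its end and downstream. H3K4me1 covered 100%, 77.8%, 100% and 100% of them at 0 h, before H3K27ac was called there in empty-vector cells. SETD5-V5 covered the first 2 fully in both replicates at 0 h and at 6 h. At 6 h SETD5-V5 covered the fourth fully in both replicates, and the third for 60.0% in replicate A and not at all in replicate B.

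In SETD5 cells the first stretch was already covered at 0 h, for 91.7% and 100% of its length, and was covered less at 48 h, whereas the second and the third were not covered at 0 h and the fourth was for 0% and 32%. At 48 h replicate A covered 75.0%, 92.6%, 40.0% and 48% of them, and replicate B covered 0%, 51.9%, 30% and 48%. Compared directly at 48 h, 4 stretches of 1.0 to 1.6 kb were fully covered in both empty-vector libraries and in neither SETD5 library. They began 23.8, 32.4, 36.4 and 40.2 kb after the start, and all but the last lie within or overlap the third or the fourth stretch above. The central 300 bp of the first of these (mm9, plus strand, chr6:117143051-117143350, intergenic) is printed as an example of the DNA at which the vectors differed. It holds no exact match to the NF-κB, C/EBP or AP-1 sequences above, which 5.49%, 17.3% and 13.2% of 10400 such 300 bp centres of stretches gained with empty vector genome-wide hold, and it therefore has no capitals.
Cxcl12 downstream region: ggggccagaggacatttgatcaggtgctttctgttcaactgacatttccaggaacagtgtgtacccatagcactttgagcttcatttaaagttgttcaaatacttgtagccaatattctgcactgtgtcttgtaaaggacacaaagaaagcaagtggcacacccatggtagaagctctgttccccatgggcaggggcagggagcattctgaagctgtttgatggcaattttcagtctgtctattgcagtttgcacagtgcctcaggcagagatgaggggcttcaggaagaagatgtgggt

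The Cxcl12 promoter island also differed in length between vectors. It was 8.4 and 8.0 kb long at 0 h and 12.4 and 11.2 kb at 48 h with empty vector, and 10.6 and 11.4 kb at 0 h and 9.0 and 8.0 kb at 48 h with SETD5, so it was longer with SETD5 at 0 h and shorter at 48 h, each without overlap. In SETD5 replicate A at 48 h, however, the promoter island ended 7.2 kb after the start and another island ran from 7.8 to 10.6 kb. The shorter length in that library thus depends on where the caller split the islands. By score it was among the highest-scoring islands of every H3K27ac list, at ranks of 1.97% and 2.16% at 0 h and 1.11% and 1.12% at 48 h with empty vector. With SETD5 it ranked at 0.849% and 1.29% at 0 h and at 0.709% and 0.907% at 48 h. Percentages depend on the length of the list, which at 48 h was 39068 and 39451 islands with SETD5 and 31292 and 33131 with empty vector. In places from the top, 339 and 471 islands scored higher with SETD5 at 0 h against 663 and 767 with empty vector, whereas at 48 h the vectors overlapped, with 277 and 358 against 347 and 370.

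**Figure D2:**
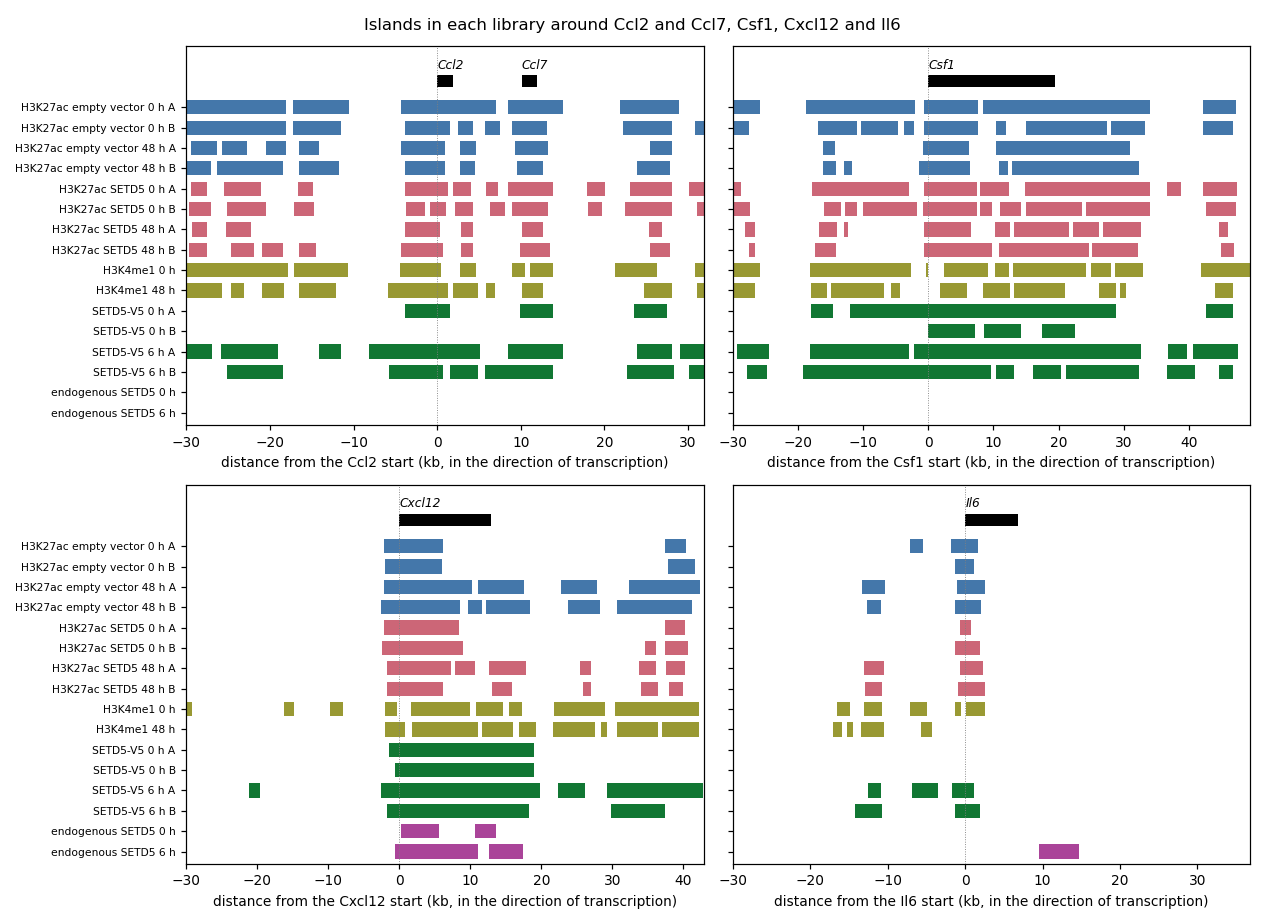
Islands (bars) of each of the 16 libraries (rows) by distance from the gene start (x axis, kb), cut at the window, around Ccl2 with Ccl7, Csf1, Cxcl12 and Il6; black bars are genes. The Cxcl12 gain past 20 kb is shorter in SETD5 cells, and of the H3K27ac rows only those at 48 h have the Il6 island between -13.3 and -10.3 kb.

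Il6 (interleukin 6, the founding member of the cytokines that signal through gp130) had the shortest H3K27ac covered length of the 8 in every library. Its window (chr5:30309701-30376508) holds no other coding gene. The covered length was 5.2 and 2.4 kb at 0 h and 6.6 and 5.2 kb at 48 h with empty vector, which overlapped by a tie at 5.2 kb (mean difference 2.1 kb). With SETD5 it was 1.4 and 3.2 kb at 0 h and 5.6 and 5.6 kb at 48 h, without overlap (mean difference 3.3 kb). This call ended with flanks of 10 kb (0.9 kb) and when only islands above the median score were kept (0.9 kb).

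The added length lay upstream and, in some libraries, also at the promoter. The promoter island was 3.6 and 2.4 kb long at 0 h and 3.6 and 3.4 kb at 48 h with empty vector. With SETD5 it was 1.4 and 3.2 kb at 0 h and 3.0 and 3.4 kb at 48 h, and the times overlapped in both vectors. An intergenic stretch of 1.8 kb from 12.7 to 10.9 kb before the Il6 start (chr5:30327001-30328800) was fully covered in all 4 H3K27ac libraries at 48 h and not at all in the 4 libraries at 0 h, whichever vector the cells carried. The islands there ranked at 51.9% and 60.6% with empty vector and at 50.3% and 53.6% with SETD5, so they were of middle strength. H3K4me1 covered the whole stretch at 0 h and at 48 h. SETD5-V5 covered 88.9% and 100% of it at 6 h and none at 0 h. Its central 300 bp (mm9, plus strand, chr5:30327751-30328050) follow, as the gain shared by both vectors, with the match to the AP-1 sequence TGANTCA in capitals.
Il6 upstream region: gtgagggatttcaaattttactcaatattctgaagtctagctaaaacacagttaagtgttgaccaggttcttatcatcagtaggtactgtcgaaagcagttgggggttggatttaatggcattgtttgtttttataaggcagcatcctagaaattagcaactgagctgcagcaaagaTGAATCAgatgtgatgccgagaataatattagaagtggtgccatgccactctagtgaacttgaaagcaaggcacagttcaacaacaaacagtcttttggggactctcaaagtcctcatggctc

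The Il6 promoter island was present in all 8 H3K27ac libraries at ranks of 21.8% and 20.7% (empty vector, 0 h), 20.9% and 19.2% (empty vector, 48 h), 35.0% and 35.6% (SETD5, 0 h) and 27% and 21.7% (SETD5, 48 h). It was thus weaker in SETD5 cells at both times, without overlap between vectors. H3K4me1 was called at the Il6 promoter at 0 h and not at 48 h, and its covered length in the window was 9.4 kb at 0 h and 6.4 kb at 48 h.

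Lif (leukaemia inhibitory factor, another gp130 cytokine) lies on chromosome 11 with Osm in its window (chr11:4127560-4202517). The covered length was 13.9 and 10.9 kb at 0 h and 12.3 and 10.1 kb at 48 h with empty vector, and 8.3 and 6.1 kb at 0 h and 5.9 and 9.5 kb at 48 h with SETD5. The times overlapped within each vector. Both SETD5 libraries lay below both empty-vector libraries at 0 h (mean difference -5.2 kb) and at 48 h (-3.5 kb). The difference lay at the far edge of the window, where a stretch 34.8 to 37.6 kb after the start was fully covered in both empty-vector libraries at 48 h and in neither SETD5 library, and with flanks of 10 kb it became 0.4 kb at 0 h and 1.1 kb at 48 h. Counting islands only where at least 50% of the island lay in the window gave 0.42 kb at 48 h.

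Csf1 (CSF1, or M-CSF, the survival and growth factor of macrophages) had the longest H3K27ac covered length of the 8 in every library but those of empty vector at 48 h, in which Cxcl12 exceeded it. Its window (chr3:107513966-107593387, minus strand) holds no other coding gene. With empty vector the covered length was 59.8 and 47.8 kb at 0 h, or 75.3% and 60.2% of the window, and 29.4 and 32.0 kb at 48 h. With SETD5 it was 55.0 and 51.4 kb at 0 h and 34.2 and 37.4 kb at 48 h. It fell without overlap in both vectors, with a mean change of -23.09 kb with empty vector and -17.39 kb with SETD5.

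At 48 h Csf1 was the only one of the 8 genes with more H3K27ac in SETD5 cells than in empty-vector cells without overlap (mean difference 5.1 kb), and at 0 h the vectors overlapped. The 48 h difference was 0.6 kb with flanks of 10 kb and 3.5 kb with equal numbers of islands per list, both with overlap, and -1.2 kb with only islands above the median score. Stretches lost in empty-vector cells lay on both sides of the gene. The longest, 5.8 kb from 10.4 to 4.6 kb before the start (chr3:107568001-107573800, intergenic), was fully covered in both empty-vector libraries at 0 h and for 100% and 93.1% of its length in the SETD5 libraries at 0 h, and none of the 4 H3K27ac libraries at 48 h covered it. A far upstream island of 11.4 and 10.4 kb, which extends past the window, ranked at 5.45% and 4.49% with empty vector at 0 h. Over the 12.2 kb spanned by these islands (chr3:107589201-107601400), the covered length fell from 11.4 and 10.4 kb at 0 h to 1.8 and 2.2 kb at 48 h with empty vector and from 8.8 and 10.0 kb to 6.6 and 4.6 kb with SETD5. The promoter island moved from ranks of 3.57% and 2.88% to 11.7% and 8.72% with empty vector and from 2.43% and 2.77% to 7.38% and 6.39% with SETD5.

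**Figure D3:**
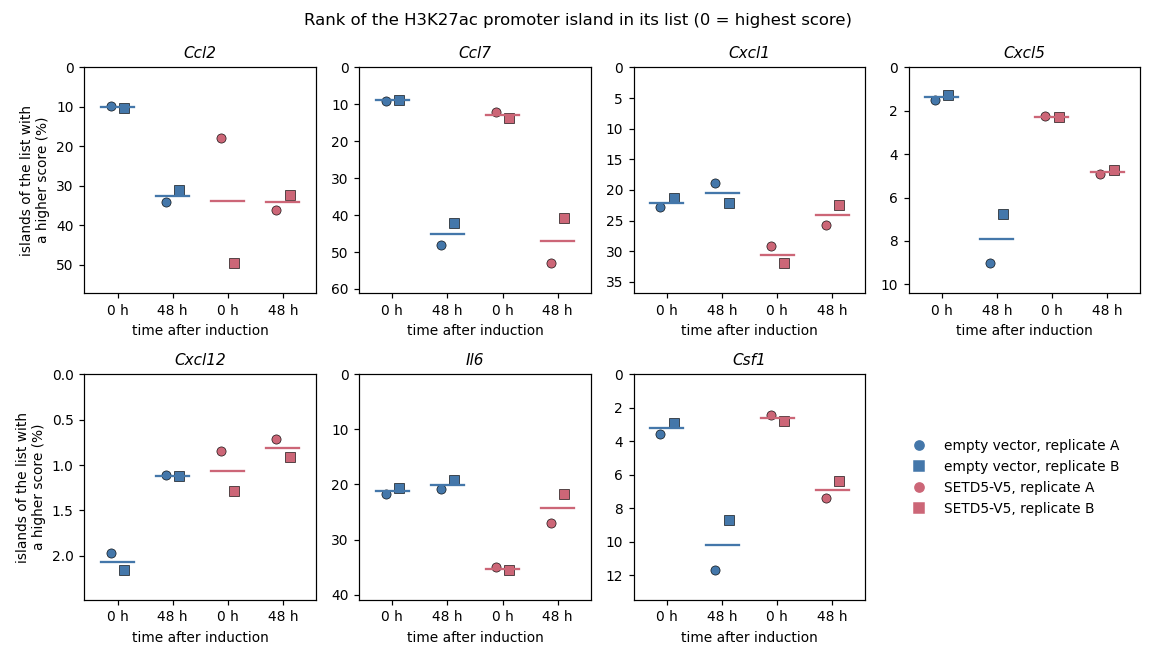
Rank of the H3K27ac promoter island (y axis, percentage of islands in the same list with a higher score, inverted so that strong islands are at the top) by time (x axis) and vector for the 7 genes with an island in all 8 libraries; points are libraries and lines are means of 2. Ccl7 drops from 9.0% and 8.68% to 48.2% and 42.1% with empty vector, and Cxcl12 stays within the top 2.16% throughout.

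Counted together, H3K27ac over 48 h in empty-vector cells was lower at 4 of the 8 genes (Ccl2, Ccl7, Cxcl5 and Csf1), where 22.7% of 16852 genes tested were lower, and higher at 1 (Cxcl12), where 38.3% were higher. In SETD5 cells it was lower at 3 (Ccl2, Ccl7 and Csf1), against 29.4% of 16937 genes, and higher at 2 (Cxcl12 and Il6), against 30.4%. SETD5 cells were lower than empty-vector cells at 0 h at 4 (Ccl2, Ccl7, Cxcl5 and Lif), against 13.9% of 16650 genes, and higher at 1 (Cxcl12), against 23.6%. At 48 h they were lower at 4 (Ccl2, Ccl7, Cxcl12 and Lif), against 32.1% of 16663 genes, and higher at 1 (Csf1), against 22.1%. The comparisons over time and between vectors share libraries, and Ccl2 and Ccl7 share most of their window, so these counts are not independent of one another. Over all genes tested the median difference was 0.5 kb and 0.0 kb over time with empty vector and SETD5, and 0.2 kb and -0.3 kb between vectors at 0 h and 48 h.

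The change over 48 h was also set side by side between vectors within each letter. These changes join a 0 h and a 48 h library by their letter, although the letters were not taken to pair the libraries, and the exact p cannot go below 0.333. At Cxcl12 it was 22.6 kb in both letters with empty vector and 10.15 and 0.2 kb with SETD5, without overlap, and 32.8% of 17273 genes were lower with SETD5 in this way. Cxcl5, with changes of -6.6 and -4.0 kb against -0.4 and 0.6 kb, and Cxcl1, with -0.27 and -2.87 kb against 0.13 and 2.0 kb, were higher with SETD5, as were 16.7% of all genes. At Ccl2 the changes were -18.93 and -8.36 kb with empty vector and -16.75 and -8.36 kb with SETD5, and at Ccl7 they were -21.23 and -12.63 kb and -20.43 and -13.44 kb. The loss at these CC ligands thus overlapped between vectors, as did the changes at Il6, Csf1 and Lif.

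SETD5-V5 covered more of all 8 windows at 6 h than at 0 h, without overlap, against 52.9% of 15166 genes tested. None was lower, against 1.3%. At Ccl2 it covered 13.4 and 0.0 kb at 0 h and 39.3 and 32.0 kb at 6 h. At Cxcl1 it covered 4.2 and 0.0 kb at 0 h and 23.7 and 23.2 kb at 6 h. Replicate B at 0 h, the shortest list, had no island in the windows of Ccl2, Ccl7, Cxcl1 and Il6.

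Cxcl12 and Csf1 carried SETD5-V5 before induction in both replicates. Cxcl12 was covered for 20.4 and 19.6 kb at 0 h, in a single island that ran over the promoter and gene body, and for 41.4 and 27.6 kb at 6 h. That island was 22.4 and 20.0 kb long at 6 h, and most of the added length lay in separate islands, among them 1 of 13.6 kb (A) and 1 of 7.6 kb (B) downstream of the gene. Csf1 was covered for 48.4 and 18.0 kb at 0 h and 65.0 and 56.8 kb at 6 h. At Cxcl5 the values were 9.6 and 8.2 kb at 0 h and 24.8 and 26.8 kb at 6 h, and at Lif they were 3.9 and 2.3 kb and 15.5 and 8.1 kb.

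Il6 had no SETD5-V5 island in either replicate at 0 h and was covered for 7.8 and 6.8 kb at 6 h. It was the 1 promoter of the 8 with an island in both libraries at 6 h and in neither at 0 h, as were 7.67% of all protein-coding promoters, and its islands there were weak, at ranks of 72.0% and 83.8%. At 6 h the promoters of 7 of the 8 genes, all but Lif, carried SETD5-V5 in both libraries, against 21.8% of all promoters. With the lists held to equal numbers of islands 5 genes rather than 8 were higher at 6 h, and Il6 then had no difference (0.0 kb), since its islands fell below that limit.

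Endogenous SETD5, with 1 library per time and so no replicate check, gave far fewer islands. Of the 8 genes 4 had any coverage and could be called. By a 1.5-fold limit all 4 were higher at 6 h, against 71.5% of 4267 genes with any coverage, and none was lower, against 14.6%. Cxcl1 went from 0.0 to 9.6 kb, Cxcl5 from 3.0 to 6.8 kb, Cxcl12 from 8.4 to 16.4 kb and Il6 from 0.0 to 5.2 kb. The Il6 island lay 9.5 to 14.7 kb after the start, past the end of the gene, where neither SETD5-V5 nor H3K27ac was called. Ccl2, Ccl7, Csf1 and Lif had no endogenous SETD5 island at either time, although SETD5-V5 at 6 h covered 8.1 kb or more of each.

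H3K4me1 moved little at most of these genes. None of the 8 differed by 1.5-fold between the 2 libraries, while 34.7% of 15606 genes tested were higher and 19.7% lower at 48 h. In kb Csf1 had the largest difference, from 55.4 to 38.0 kb, followed by Ccl7 (33.2 to 27.2 kb) and Ccl2 (35.9 to 30.9 kb). By the ratio of 48 h to 0 h, Il6 (9.4 to 6.4 kb, 0.68) and Csf1 (0.69) fell the most, just short of the limit. Cxcl12 held 38.6 kb at 0 h and 36.6 kb at 48 h, so that its H3K4me1 was already longer at 0 h than its H3K27ac at 48 h. Lif held 24.5 and 25.1 kb, Cxcl1 16 and 18.9 kb, and Cxcl5 18.4 and 17.2 kb.

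**Figure D4:**
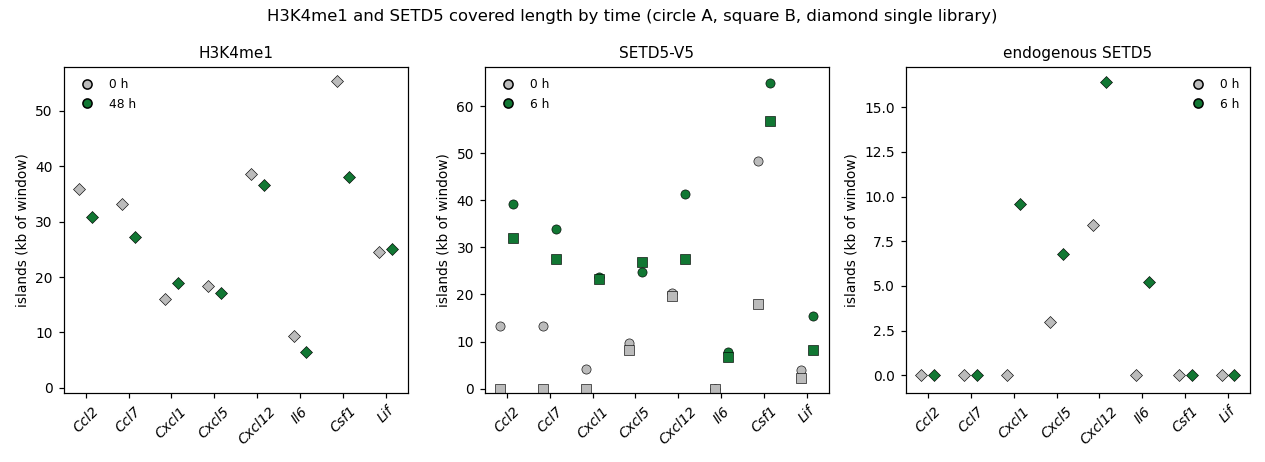
Covered length (y axis, kb of the window) of H3K4me1, SETD5-V5 and endogenous SETD5 at the 8 genes (x axis), earlier time in grey and later time in green; each point is 1 library. SETD5-V5 is higher at 6 h at all 8 genes, whereas Ccl2, Ccl7, Csf1 and Lif stay at 0.0 kb for endogenous SETD5.

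Stretches of at least 1000 bp that were covered in both empty-vector libraries of one time and in neither of the other were then compared with the other marks. They were defined after the islands had been seen. In all, 6 gained and 15 lost stretches overlapped the 8 windows, those shared by Ccl2 and Ccl7 being counted once. The Cxcl12 window alone held 4 of the gained stretches, and the Csf1 window at least 6 of the lost ones. Stretches of the same window are not independent, so the counts below mostly describe few genes. Of the 6 gained, 5 overlapped H3K4me1 at 0 h, against 42.4% of 10400 gained stretches genome-wide, 4 overlapped SETD5-V5 in both 6 h libraries, against 44.2%, and none was absent from both SETD5 H3K27ac libraries at 48 h, against 19.3%. Of the 15 lost, 14 overlapped H3K4me1 at 0 h, against 62.4% of 10683 lost stretches, 10 overlapped SETD5-V5 in both 6 h libraries, against 28.2%, and 8 were absent from both SETD5 libraries at 48 h, against 56.6%.

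Other genes of the same pathways were taken from a list of 69, of which 66 were matched. Of 56 with H3K27ac in empty-vector cells, 21 were higher and 18 lower at 48 h, against 38.3% and 22.7% of all genes tested, and of 56 in SETD5 cells 18 were higher and 19 lower, against 30.4% and 29.4%. Of 14 CC ligands, 9 were lower and 3 higher with empty vector (median -2.41 kb), and 7 were lower and 2 higher with SETD5 (median -2.51 kb). Both pairs of counts are read against the shares just given, and several of these genes are neighbours with overlapping windows, so they are not independent. Ccl6 and Ccl9, neighbours whose ligands attract monocytes and other leukocytes, were among them. Ccl6 was covered for 40.8 and 37.0 kb at 0 h and 14.2 and 14.8 kb at 48 h. Ccl11 (eotaxin, an eosinophil attractant), whose window overlaps those of Ccl2 and Ccl7, fell from 32.4 and 26.6 kb to 13.8 and 13.8 kb.

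Receptors and receptor subunits were fewer, with H3K27ac at 5 of 11 matched windows, of which 4 were higher and 1 lower at 48 h in each vector, against 38.3% and 22.7% of all genes with empty vector and 30.4% and 29.4% with SETD5. Il6st, which encodes gp130, the shared signalling subunit for IL-6 and LIF, rose from 10.4 and 13.4 kb to 28.4 and 29.2 kb with empty vector and from 10.6 and 14.0 kb to 38.3 and 45.3 kb with SETD5. Il6ra, the IL-6 receptor subunit, rose from 19.6 and 19.2 kb to 30.8 and 29.6 kb with empty vector. Lifr, the LIF receptor subunit, rose from 32.4 and 23.0 kb to 42.8 and 40.4 kb with empty vector, and with SETD5 it stood at 30.2 and 29.4 kb at 48 h, below both empty-vector libraries. Hence Il6st and Il6ra were higher and Lifr lower in SETD5 cells than in empty-vector cells at 48 h.

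Among NF-κB factors and inhibitors, 5 of 10 were higher and 1 lower at 48 h with empty vector (38.3% and 22.7% of all genes), and 3 were higher and 3 lower with SETD5 (30.4% and 29.4%). Nfkbia (IκBα, an inhibitor that glucocorticoids are known to induce) rose from 12.6 and 12.6 kb to 28.6 and 24.6 kb with empty vector and from 9.6 and 10.6 kb to 18.4 and 18.0 kb with SETD5. Of the CXC and CX3C ligands, 3 of 10 were higher and 4 lower with empty vector, and 2 were higher and 2 lower with SETD5. Those 4 included Ppbp, Pf4 and Cxcl3, which lie in the Cxcl5 window, so they are not independent of one another or of Cxcl5. Cx3cl1 (fractalkine) rose from 23.1 and 19.9 kb to 39.9 and 36.7 kb with empty vector. Of 17 other cytokines 6 were higher and 3 lower with empty vector, and 7 were higher and 6 lower with SETD5. Il34, a second ligand of the CSF1 receptor, rose from 76.3 and 68.5 kb to 94.7 and 93.3 kb with empty vector, opposite to Csf1.

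Between vectors at 48 h, 21 of 54 of these pathway genes were lower and 7 higher with SETD5, against 32.1% and 22.1% of all genes tested, and at 0 h 17 of 53 were lower and 8 higher, against 13.9% and 23.6%. Il33, an alarmin of stromal cells, was covered for 13.4 and 7.6 kb with empty vector and for 3.0 and 1.8 kb with SETD5 at 48 h. Nfkb1, the p50 subunit gene, went the other way, with 11.2 and 6.8 kb against 17.4 and 19.2 kb. SETD5-V5 was higher at 6 h at 36 of 52 of these genes, against 52.9% of all genes tested, and lower at none, against 1.3%.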

How the data were processed

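Island lists of 16 libraries were used. The authors aligned reads, trimmed to 36 bases, to mm9 (ELAND or Bowtie2) and ran SICER or SICER2 library by library. Their settings were a window of 200 bp, a gap of 400 bp (histone marks) or 600 bp (SETD5) and an E-value of 100. The sizes of the replicate A, H3K4me1 and endogenous SETD5 lists equal the counts that the study's records give for SICER2. The deposited lists give each island's position and the authors' score, whose scale is that of the caller, so scores were used only as ranks within a list. The lists hold no read counts, and no count test or interval for depth was possible. Groups and replicate letters come from the sample titles.

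Covered length was computed for windows of each protein-coding gene (NCBIM37, which is mm9, with its GENCODE annotation) with Python 3.11.15, numpy 2.4.6, pandas 2.3.3 and scipy 1.17.1, figures were drawn with matplotlib 3.10.9, and the overlap code was tested on simulated data against bedtools 2.31.1. Groups of 2 were compared by the exact permutation test and by absence of overlap, and single libraries by a 1.5-fold limit. The letters were not taken to pair the libraries, since the A minus B differences of 2 groups correlated over genes at 0.30, 0.21 and 0.42 in the comparisons over time but at -0.39 and -0.01 between vectors (0 h and 48 h). The replicates are called biological by the study, and p-values measure only the spread between them.

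All 8 genes are named. Of the other pathway genes, those called in an H3K27ac comparison with the largest mean differences were named, at most 3 of each list group. The genes and lists were chosen with earlier results of these data known. Alternatives were flanks of 10 and 50 kb, a score above the list's median, lists limited to their highest-scoring islands (H3K27ac 31000, H3K4me1 49000, SETD5-V5 6000, endogenous SETD5 2000), at least 50% of the island in the window, the number of islands, each replicate left out, and a replicate block.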

Additional observations from a re-analysis of the deposited data

Results flagged for a closer look

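With libraries joined by letter, the change in H3K27ac covered length at Cxcl1 over 48 h went in opposite directions with the vectors. It was -0.27 kb in A and -2.87 kb in B with empty vector (mean -1.57 kb). With SETD5 it was 0.13 kb in A and 2.0 kb in B (mean 1.07 kb), so that both changes in letter A were near 1 bin of 200 bp. The changes did not overlap between the vectors, with an exact two-sided permutation p of 0.333, the smallest that 2 against 2 allow, and 16.7% of all genes were higher with SETD5 in the same way. The changes join libraries by letter, although the letters were not taken to pair them, and the 0 h and 48 h libraries overlapped within each vector. With crossed letters the covered length went from 17.8 to 12.9 kb and from 15.8 to 17.5 kb with empty vector. With SETD5 it then went from 12.0 to 17.8 kb and from 15.8 to 12.1 kb, so neither vector kept a single direction.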

How the results depend on the processing

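Of 456 values of single genes under the alternatives, 373 kept direction and call, 50 lost a call, 20 gained one and 13 turned direction, and the causes were not tested. Counting islands in place of length turned the most directions (7), giving for empty vector over time 1 gene lower (4 by length; Ccl2 turned to 1.0 islands), for SETD5 against empty vector 2 higher and 0 lower at 0 h (Ccl2 4.0, Ccl7 2.0, Cxcl5 1.0 and Lif 0.5 islands) and 2 higher and 0 lower at 48 h (Cxcl12 1.0 and Lif 0.5 islands), and for endogenous SETD5 2 higher (4 by length). Flanks of 10 kb gave 0 higher over time with SETD5, 1 lower at 0 h (Ccl7 0.29 kb, Lif 0.4 kb) and 0 higher at 48 h between vectors (Lif 1.1 kb), 5 higher for SETD5-V5 and 2 lower for H3K4me1, and flanks of 50 kb gave 1 higher over time with SETD5. Islands above the median score gave 1 higher over time with SETD5 (Cxcl12 -3.2 kb), 0 higher with SETD5 at 48 h (Csf1 -1.2 kb), and 1 higher and 3 lower for H3K4me1. Equal numbers of islands gave 0 higher with SETD5 at 48 h, 5 higher for SETD5-V5 and 2 higher for endogenous SETD5. With at least 50% of the island in the window Lif turned to 0.42 kb at 48 h between vectors. Leaving out a replicate left 1 library against 1 and the stricter 1.5-fold limit, which by construction removes small differences. Over time with empty vector 1 to 2 genes were then higher and 1 to 3 lower, with replicate A left out giving the 1, and over time with SETD5 1 to 3 were lower. Between vectors 0 were higher at either time, 1 to 2 were lower at 0 h and 1 to 3 at 48 h. With a replicate block (same sign within letters A and B) 2 genes were higher with empty vector over time (1 without the block) and 6 lower (4 without), since Il6, Cxcl1 and Lif joined, and the block changed no other count by over 1.5 times. Between vectors at 0 h the letters correlated at -0.39, and crossed letters gave 1 higher and 6 lower. The lists hold only islands above the caller's threshold, so a weaker signal was not detectable at the depth of each library.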

Other observations

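The genes on other chromosomes whose H3K27ac covered length over the 8 libraries lay nearest to each of the 8 genes (Euclidean distance in kb) differed from gene to gene. They were Tpra1 for Ccl2 (12.1 kb), Fam98a for Ccl7 (10.41 kb), Card9 for Cxcl1 (4.53 kb), Tpp1 for Cxcl5 (3.21 kb), Ppp4c for Cxcl12 (8.93 kb), Cd69 for Il6 (2.29 kb), Col3a1, a fibrillar collagen gene, for Csf1 (11.45 kb) and Art3 for Lif (4.21 kb). Genes with short covered lengths have small distances by construction. None of these 8 nearest genes is a chemokine or cytokine gene.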
